A study of Chromochloris zofingiensis with 6 samples.

Results

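The genes described here make, interconvert or break down amino acids other than histidine, lysine and arginine in Chromochloris zofingiensis, a unicellular green alga that can store oil and the red carotenoid astaxanthin. They are the genes of the amino acid list that the study compiled, each identifier counted once, after removal of every identifier in the sections for histidine, for lysine, for arginine, and for the transport and assimilation of nitrogen. This left 108 of the 175 genes of the list, against 15037 genes listed in at least 1 library. The 108 genes stand in 17 sections, and the section for the steps shared by threonine, methionine and lysine was kept. Of the kept identifiers, 7 stand in more than 1 section and were counted where they stand first. The sections were joined into 10 groups by the amino acids they concern, and each gene was put into 1 of 3 classes by its annotated enzyme: synthesis, interconversion, and breakdown or other use.

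Libraries of poly-A RNA were made from strain ATCC30412, 1 from each of 3 biological replicate cultures at 0 h and 3 at 6 h. Cells in exponential phase under continuous light and CO2-enriched air were collected by centrifugation and put into fresh Kuhl medium holding 200 mM NaCl, and RNA was taken at the start (0 h) and 6 h later. A 6 h culture without added salt was not analysed here, so salt, time, centrifugation and fresh medium cannot be told apart. The files give FPKM, the fragments mapped to a gene relative to its length and to all fragments mapped, which are shares of a library, so that less of a transcript in every cell and fewer cells that carry it cannot be told apart. The libraries listed 14233 to 14697 genes each, but how many fragments a value rests on is unknown, so precision is taken from the spread between the 3 cultures of a time. All 108 genes were listed in all 6 libraries and passed the filter on low values (a mean of at least 1 FPKM at either time), with mean levels from 7.17 to 767 FPKM at 0 h and from 1.11 to 1727 FPKM at 6 h.

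As background, a green alga makes all protein amino acids itself. Ammonium enters through glutamine synthetase and glutamate synthase, aminotransferases pass the amino group on, and the carbon skeletons come from glycolysis, the citric acid cycle, photorespiration and the pentose phosphate pathway. Aspartate is the start of asparagine, threonine and methionine, pyruvate and threonine are the start of the branched-chain amino acids, and the shikimate pathway makes chorismate for the aromatic ones. Proline, made from glutamate or ornithine, is known as a solute that many plants and algae accumulate under salt.

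At 6 h the median synthesis gene stood above its 0 h level and the median gene of breakdown or other use below it. A gene was called when its limma adjusted p (Benjamini-Hochberg over 13886 genes) was under 0.05 and its log2 fold change, taken on scaled FPKM plus 0.1, was at least 1 in size. Of the 108 genes 43 were called higher (39.8%), where 20.0% of all genes tested were, and 16 were called lower (14.8%), where 26.6% of all genes tested were. In all 59 of the 108 were called in either direction, against 46.6% of all genes. Another 25 genes had an adjusted p under 0.05 but a smaller change. The median log2 fold change was 0.66 over the 108 genes and -0.04 over all genes tested. On the deposited FPKM, all 6 h cultures lay above all 0 h cultures for 53 genes and below them for 36, against 27.2% and 46.1% of all genes, and the times did not overlap for 73.3% of all genes.

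The calls were then counted by class. Of the 70 synthesis genes 37 were called higher (52.9%) and 5 lower (7.14%), at a median log2 fold change of 1.003. Over all genes tested 20.0% were called higher and 26.6% lower. The 37 became 22, 21 and 22 without scaling, with TPM and with upper-quartile scaling, and the 5 became 3 without 0 h replicate 1, 0 h replicate 2, 6 h replicate 1 or 6 h replicate 2. Of the 23 interconversion genes, mostly aminotransferases and other reversible enzymes, 5 were called higher (21.7%) against 4 lower (17.4%), around a median of -0.01. Not all aminotransferases are in this class. Those of branched-chain amino acids and of phosphoserine were put under synthesis, those of tyrosine under breakdown or other use. The class counts depend on this split, and 3 of the 5 lower synthesis calls are branched-chain aminotransferases. The higher share was close to that of all genes tested. The lower calls were 8 with TPM and 7 with upper-quartile scaling. Of the 15 genes of breakdown or other use 7 were called lower (46.7%) against 1 higher (6.67%), around a median of -0.74. The higher calls were 2 without 0 h replicate 2, 6 h replicate 2 or 6 h replicate 3. Other uses count here too, and S-adenosylmethionine synthetase and a glutamate decarboxylase are among the lower calls. The deposited FPKM of 13 of the 15 lay wholly below the 0 h range, where that of 46.1% of all genes tested did. After scaling fewer did. The times then overlapped for the second glutamate decarboxylase (log2 fold change -0.15), the second tyrosine aminotransferase (-0.04) and the aromatic decarboxylase (0.05). Summed over the class, the synthesis genes went from 6107 ± 92.3 FPKM at 0 h to 12240.0 ± 757 FPKM at 6 h (mean ± SD, n = 3). The interconversion genes summed to 2626 ± 37.0 FPKM at 0 h and 2790.1 ± 210.4 FPKM at 6 h, ranges that overlapped between the times. The genes of breakdown or other use summed to 639.95 ± 21.5 FPKM at 0 h and 310.3 ± 25.7 FPKM at 6 h. The 108 genes together held 0.973% to 1.01% of the summed FPKM of a library at 0 h and 1.41% to 1.52% at 6 h.

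The number of higher calls depended on how the libraries were scaled. The median-of-ratios scaling used here added 0.31 to the log2 fold change of a gene relative to FPKM as deposited. Without scaling 27 members were called higher and 19 lower, with scaling to equal sums (TPM) 26 were higher and 23 lower, and upper-quartile scaling gave 27 higher calls and 21 lower, so that 72.9%, 58.7%, 53.1% and 56.2% of the calls were higher in this order of scalings, starting from the one used. Over all genes tested 42.9%, 30.1%, 25.5% and 28.4% of the calls were higher in the same order. The median over all genes shifted with the scaling too, to -0.34, -0.47 and -0.39. Relative to the median of all genes the members stood 0.70 higher under each of the 4 scalings, the synthesis genes 1.04 higher and the genes of breakdown or other use 0.70 lower on the log2 scale. A scaling shifts every gene of a library by nearly the same amount. These differences could therefore hardly change with the scaling, and their stability tests nothing.

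**Figure D1:**
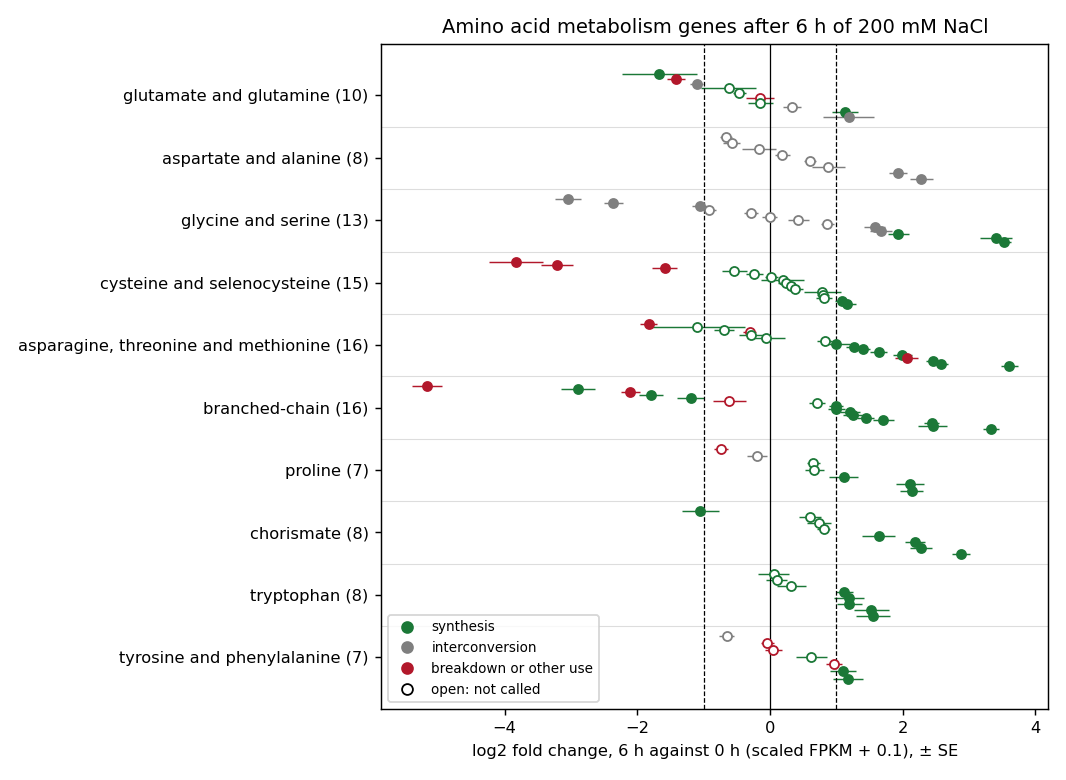
Log2 fold change of each of the 108 genes (6 h against 0 h, on scaled FPKM plus 0.1, horizontal axis, with its SE as a bar), in rows by amino acid group with the number of genes in parentheses and coloured by class. Filled points were called and open ones were not, the dashed lines mark -1 and 1, and the filled points run from -5.17 for a branched-chain breakdown gene to 3.61 for an aspartate-semialdehyde dehydrogenase.

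Of the 10 glutamate and glutamine genes 2 were called higher (20.0%) and 3 lower (30.0%), close to the 20.0% and 26.6% of all genes tested, and their median was -0.31. The 3 lower genes act at different steps. Cz08g04180, the NADH-dependent glutamate synthase that forms glutamate from glutamine and oxoglutarate, measured 139, 127 and 106 FPKM at 0 h and 14.5, 27.5 and 75.7 FPKM at 6 h. The 6 h cultures lay below the 0 h cultures but differed widely among themselves, and the gene fell by 1.67 on the log2 scale (log2 fold change -1.67 ± 0.56 SE, limma adjusted p = 0.0382). UNPLg00813, a glutamate decarboxylase that turns glutamate into gamma-aminobutyrate, measured 60.5, 56.0 and 65.3 FPKM at 0 h and 17.6, 21.4 and 16.1 FPKM at 6 h. All of its 6 h values were under the lowest 0 h value (log2 fold change -1.42 ± 0.14 SE, limma adjusted p = 2.48e-04). Cz06g01130, an NAD(P)-linked mitochondrial glutamate dehydrogenase, went from between 130.4 and 139 FPKM at 0 h to between 45.2 and 54.2 FPKM at 6 h and was called lower as well (log2 fold change -1.10 ± 0.10 SE, limma adjusted p = 1.93e-04).

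The 2 genes called higher in this group are a glutamine synthetase and another glutamate dehydrogenase. Cz14g20030, a glutamine synthetase, which joins ammonium to glutamate, measured 74.0, 75.3 and 80.0 FPKM at 0 h and 167, 143 and 103 FPKM at 6 h. Its times did not overlap (log2 fold change 1.13 ± 0.19 SE, limma adjusted p = 0.00258). The NADP-linked glutamate dehydrogenase Cz06g31270 measured 41.8, 42.1 and 36.0 FPKM at 0 h and 41.8, 73.8 and 128 FPKM at 6 h. Here the first 6 h culture lay within the 0 h range and the third stood at the top (log2 fold change 1.19 ± 0.38 SE, limma adjusted p = 0.0323). The chloroplastic glutamine synthetase Cz12g28130, the most abundant of the section at 0 h, was at 266, 256 and 269 FPKM at 0 h and 159.7, 157 and 147 FPKM at 6 h, below the 0 h range in every 6 h culture but short of the size limit (log2 fold change -0.46 ± 0.10 SE, limma adjusted p = 0.0059). Over the 3 glutamine synthetase genes the sum was 430.1 ± 4.56 FPKM at 0 h and 345.9 ± 6.91 FPKM at 6 h (mean ± SD, n = 3), a log2 ratio of -0.01 once the libraries were scaled. Cz14g05250, the third glutamate dehydrogenase, had 123 to 136 FPKM at 0 h and 112 to 151 FPKM at 6 h, and its small difference (log2 fold change 0.33 ± 0.14 SE, limma adjusted p = 0.0765) changed sign under 2 of the other scalings (-0.11 with TPM and -0.03 with upper-quartile scaling). The mitochondrial glutamine synthetase, the ferredoxin-dependent glutamate synthase and the second glutamate decarboxylase were not called, with log2 fold changes of -0.62, -0.14 and -0.15. The 2 higher calls of this group were lost under all 3 other scalings. With 1 library left out, Cz14g20030 was short of the size limit without 6 h replicate 1 (0.97). Cz06g31270 was called only with all libraries or without 6 h replicate 1, and stood at 0.80 without 6 h replicate 3. Cz08g04180 was called only with all libraries or without 6 h replicate 3, with log2 fold changes from -2.29 to -1.14 over the libraries left out.

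Aspartate and alanine are made by single transfers of an amino group, so all 8 genes of these sections are aminotransferases. Of these 2 were called higher (25%), near the 20.0% of all genes tested, and none lower, where 26.6% were. Cz03g00170 (AST3), the chloroplastic aspartate aminotransferase, which forms aspartate from oxaloacetate and glutamate, measured 141, 142 and 151 FPKM at 0 h and 682, 594 and 452 FPKM at 6 h. Its lowest 6 h value was far above its highest 0 h value (log2 fold change 2.28 ± 0.18 SE, limma adjusted p = 8.97e-05). The mitochondrial form Cz04g01240 (AST4) measured 107, 92.0 and 97.5 FPKM at 0 h and 330.3, 322 and 265 FPKM at 6 h, again without overlap (log2 fold change 1.93 ± 0.13 SE, limma adjusted p = 6.05e-05). The other 4 aspartate aminotransferases had log2 fold changes from -0.17 to 0.88 and were not called. Summed over the 6 isogenes, the level went from 708 ± 21.1 FPKM at 0 h to 1354 ± 188 FPKM at 6 h, and the share of AST3 in the sum went from 20.4% to 42.5%. The more abundant of the 2 alanine aminotransferases, Cz01g02070, which interconverts alanine and pyruvate, measured 237, 229 and 225 FPKM at 0 h and 113, 122 and 119 FPKM at 6 h. All its 6 h values were under the 0 h values, but the log2 fold change stayed under the limit (log2 fold change -0.66 ± 0.09 SE, limma adjusted p = 9.90e-04). The other alanine aminotransferase had -0.58 and was called lower with TPM only (-1.02). Under TPM and upper-quartile scaling Cz01g02070 was called lower, at -1.10 and -1.02.

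Of the 13 glycine and serine genes 5 were called higher (38.5%) and 3 lower (23.1%), where 20.0% and 26.6% of all genes tested were. The lower share was thus close to that of all genes. Within the group the genes divided by route. Serine can be made from phosphoglycerate, an intermediate of glycolysis, by dehydrogenation, amino transfer and removal of the phosphate, and all 3 genes of that route were called higher. Cz01g24020 (PGDH), the phosphoglycerate dehydrogenase that opens it, measured 27.0, 26.9 and 26.3 FPKM at 0 h and 253, 266 and 235 FPKM at 6 h. The replicates of each time lay close together, and the gene had the smallest adjusted p of all 108 genes (log2 fold change 3.53 ± 0.10 SE, limma adjusted p = 6.29e-06). Cz10g17070 (PSP), the phosphatase that closes the route, measured 61.8, 59.96 and 70.5 FPKM at 0 h and 676, 643 and 378 FPKM at 6 h. It was the most abundant member of its section over both times, with the third 6 h culture well under the other two (log2 fold change 3.41 ± 0.24 SE, limma adjusted p = 6.76e-05). Cz12g19100 (PSAT), the aminotransferase in between, went from between 96.4 and 104 FPKM at 0 h to between 252 and 347 FPKM at 6 h (log2 fold change 1.94 ± 0.15 SE, limma adjusted p = 1.05e-04).

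The photorespiratory transaminases, which turn glyoxylate into glycine, did not move as a block. Cz01g35240, an alanine-glyoxylate transaminase, measured 48.0, 47.1 and 45.5 FPKM at 0 h and 3.60, 4.32 and 5.86 FPKM at 6 h. The mitochondrial form Cz01g35230, whose identifier is the neighbour of Cz01g35240, measured 38.5, 31.5 and 37.3 FPKM at 0 h and 5.89, 5.48 and 5.21 FPKM at 6 h. Both lost most of their level, without overlap between the times (log2 fold changes -3.05 ± 0.19 and -2.36 ± 0.14 SE, limma adjusted p = 4.28e-05 and 3.82e-05). By contrast the isogene Cz08g25210 rose from between 41.3 and 49.5 FPKM at 0 h to between 94.0 and 133 FPKM at 6 h (log2 fold change 1.67 ± 0.17 SE, limma adjusted p = 2.57e-04), and Cz07g13110, at 56.9 to 58.5 FPKM at 0 h and 78.1 to 88.7 FPKM at 6 h, lay above the 0 h range without reaching the limit (log2 fold change 0.87 ± 0.10 SE, limma adjusted p = 4.88e-04). The 4 genes together had 185.6 ± 4.03 FPKM at 0 h and 212.7 ± 25.8 FPKM at 6 h (log2 ratio 0.51 after scaling), while the share of Cz08g25210 went from 24.5% to 55.4%. Cz11g17130, the serine-glyoxylate transaminase, went from between 215 and 230.5 FPKM at 0 h to between 77.5 and 93.6 FPKM at 6 h and was called lower (log2 fold change -1.06 ± 0.12 SE, limma adjusted p = 3.74e-04), a call that was lost without 6 h replicate 3 (-0.97). Among 5 genes for serine hydroxymethyltransferase, which interconverts glycine and serine, Cz15g07240 rose from between 29.7 and 32.4 FPKM at 0 h to between 61.9 and 86.8 FPKM at 6 h (log2 fold change 1.58 ± 0.16 SE, limma adjusted p = 2.58e-04). The other 4 had log2 fold changes from -0.92 to 0.43, and the lowest of them, Cz02g08070, was called lower under the 3 other scalings. All 5 summed to 721.3 ± 18.1 FPKM at 0 h and 585.4 ± 48.2 FPKM at 6 h, which is a log2 ratio of 0.01 after scaling.

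Cysteine genes showed modest changes in synthesis and large falls in breakdown. Of the 12 genes classed as synthesis in the cysteine and selenocysteine sections 2 were called higher (16.7%) and none lower. Over all genes tested 20.0% were called higher and 26.6% lower. The 12 include a cystathionine beta-lyase, which the list places under cysteine (log2 fold change 0.81, not called). All 3 breakdown genes were called lower. Cz06g17250, a thiosulfate/3-mercaptopyruvate sulfurtransferase, which moves sulfur from a deaminated form of cysteine, measured 18.6, 18.4 and 19.9 FPKM at 0 h and 1.16, 1.66 and 0.500 FPKM at 6 h. Its 6 h mean was the lowest of any member, where the added 0.1 weighs most on a fold change (log2 fold change -3.82 ± 0.41 SE, limma adjusted p = 3.35e-04). The second gene of this enzyme, Cz11g01160, stood higher and measured 79.6, 80.4 and 85.2 FPKM at 0 h and 8.50, 8.45 and 4.84 FPKM at 6 h. It fell in every culture as well (log2 fold change -3.21 ± 0.24 SE, limma adjusted p = 8.29e-05), and the pair together went from 100.7 ± 3.83 to 8.37 ± 2.63 FPKM. Cz09g30210, a cysteine desulfhydrase, which releases sulfide from cysteine, fell from between 40.0 and 49.5 FPKM at 0 h to between 9.35 and 14.0 FPKM at 6 h (log2 fold change -1.59 ± 0.19 SE, limma adjusted p = 5.56e-04).

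Cysteine itself is built when serine O-acetyltransferase activates serine and O-acetylserine sulfhydrylase adds sulfide. Cz01g40010, 1 of 6 sulfhydrylase genes, measured 35.8, 32.8 and 38.7 FPKM at 0 h and 72.9, 63.6 and 58.1 FPKM at 6 h. Cz03g39110, 1 of 3 acetyltransferase genes, measured 60.7, 60.7 and 64.7 FPKM at 0 h and 117, 108 and 96.3 FPKM at 6 h. Both lay wholly above their 0 h range (log2 fold changes 1.16 ± 0.13 and 1.09 ± 0.11 SE, limma adjusted p = 4.66e-04 and 3.14e-04), and both calls were lost under the 3 other scalings. The sulfhydrylase Cz03g05100 was the most abundant gene of all members at 0 h, at 709, 786 and 806 FPKM at 0 h and 758, 808 and 737 FPKM at 6 h. Its times overlapped (log2 fold change 0.31 ± 0.12 SE, limma adjusted p = 0.0589), and its sign changed with TPM (-0.13) and upper-quartile scaling (-0.05). The sum of the 6 sulfhydrylase genes was 1011 ± 55.8 FPKM at 0 h and 1032 ± 53.1 FPKM at 6 h, of which it held 75.9% and 74.4%. After scaling, the log2 ratio of the sums was 0.34. The remaining genes of this section that were not called, a cystathionine beta-lyase among them, had log2 fold changes from -0.24 to 0.81. Selenocysteine, made on its own transfer RNA, has 2 genes here. Cz10g24090, the selenocysteine synthase, had 54.4 to 58.1 FPKM at 0 h and 44.3 to 48.0 FPKM at 6 h, below the 0 h range as deposited but level once the libraries were scaled (log2 fold change 0.02 ± 0.10 SE, limma adjusted p = 0.83), so its sign hung on the scaling (-0.28 as deposited, -0.42 with TPM, -0.33 with upper-quartile scaling). The kinase that prepares the transfer RNA had a log2 fold change of -0.53 and was not called.

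Asparagine synthetase, which moves an amide group from glutamine to aspartate, switched its main gene. Cz06g16090 measured 236, 243 and 246 FPKM at 0 h and 138, 126 and 99.2 FPKM at 6 h. Cz11g08100 measured 44.3, 42.5 and 41.7 FPKM at 0 h and 203, 228 and 191 FPKM at 6 h. The order of the isogenes was thus opposite in all 3 cultures of each time, and the sum was 284.3 ± 3.72 FPKM at 0 h and 328.8 ± 33.8 FPKM at 6 h. After scaling, the log2 ratio of the sums was 0.52. The share of Cz11g08100 went from 15.1% to 63.1%, and its rise was called (log2 fold change 2.58 ± 0.11 SE, limma adjusted p = 1.22e-05). Cz06g16090 lay below its 0 h range without reaching the limit (log2 fold change -0.70 ± 0.15 SE, limma adjusted p = 0.00684), and was called lower under the 3 other scalings. Cz10g10050, an isoaspartyl peptidase and asparaginase that releases ammonium from asparagine, measured 11.9, 13.5 and 12.1 FPKM at 0 h and 52.4, 38.4 and 38.0 FPKM at 6 h, and was the only gene of breakdown or other use called higher (log2 fold change 2.06 ± 0.17 SE, limma adjusted p = 1.32e-04).

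From aspartate to threonine and methionine most steps had at least 1 gene called higher. Of the 16 genes of asparagine, threonine and methionine 9 were called higher (56.2%) and 1 lower (6.25%). Over all genes tested 20.0% and 26.6% were. The path opens with aspartate kinase and aspartate-semialdehyde dehydrogenase, which also serve lysine. Cz04g20200 (ASSD), the dehydrogenase, had the largest rise of all 108 genes. It measured 43.1, 45.5 and 49.5 FPKM at 0 h and 479.6, 502 and 391 FPKM at 6 h (log2 fold change 3.61 ± 0.13 SE, limma adjusted p = 1.01e-05). The monofunctional aspartate kinase Cz08g14200 (ASK) measured 15.8, 15.8 and 16.7 FPKM at 0 h and 68.8, 77.3 and 69.4 FPKM at 6 h. No 6 h value of either gene came near its 0 h range (log2 fold change 2.46 ± 0.10 SE, limma adjusted p = 1.22e-05). Cz02g01150 (AHD), which carries a kinase and a homoserine dehydrogenase in 1 protein, went from between 47.6 and 51.0 FPKM at 0 h to between 83.3 and 109 FPKM at 6 h (log2 fold change 1.27 ± 0.13 SE, limma adjusted p = 3.00e-04). Homoserine kinase, Cz04g37140 (HSK), measured 20.3, 20.9 and 21.7 FPKM at 0 h and 45.3, 32.1 and 27.1 FPKM at 6 h, just past the limit (log2 fold change 1.003 ± 0.21 SE, limma adjusted p = 0.00631). The calls of AHD and HSK were lost under the 3 other scalings, and that of HSK also without 0 h replicate 1 (0.99) or 6 h replicate 1 (0.78). Threonine synthase, Cz17g17150 (THS), was among the most abundant genes, at 715, 666 and 666 FPKM at 0 h and 1698, 1741 and 1701 FPKM at 6 h. Its 3 cultures at 6 h were nearly equal (log2 fold change 1.64 ± 0.13 SE, limma adjusted p = 9.12e-05).

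The methionine branch held the highest mean level of any member at 6 h, 1727 FPKM against 1713 FPKM for threonine synthase. Threonine synthase stood higher in the first and second 6 h cultures, so the order of these means rests on the third. Cz11g24160 (METE), the cobalamin-independent methionine synthase, which methylates homocysteine, measured 553, 540.0 and 509 FPKM at 0 h and 1593, 1638 and 1949.9 FPKM at 6 h. In contrast with most risers the third 6 h culture was the highest here (log2 fold change 1.997 ± 0.14 SE, limma adjusted p = 6.38e-05). Cz13g09200 (CGS), a cystathionine gamma-synthase that joins cysteine to the homoserine skeleton, measured 58.1, 55.7 and 60.2 FPKM at 0 h and 126, 129 and 118 FPKM at 6 h. It rose without overlap (log2 fold change 1.41 ± 0.09 SE, limma adjusted p = 5.09e-05), and the call was lost with TPM scaling (0.97). Cz05g24030, an S-adenosylmethionine synthetase, which turns methionine into the methyl donor of the cell, measured 53.5, 50.9 and 51.6 FPKM at 0 h and 10.6, 13.5 and 11.3 FPKM at 6 h. All its 6 h values were far below the 0 h values (log2 fold change -1.83 ± 0.12 SE, limma adjusted p = 5.71e-05). The pair of genes for the cobalamin-dependent methionine synthase, with neighbouring identifiers, was not called, and the values of Cz15g06070 ranged from 4.55 to 38.6 FPKM among the 6 h cultures, with the third the highest. The gene was singled out here after its values were seen. The other genes of these sections that were not called, a homoserine dehydrogenase, the second cystathionine gamma-synthase and a methionine gamma-lyase that breaks methionine down, had log2 fold changes of -0.06, -0.28 and -0.31.

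The branched-chain genes had the widest span of log2 fold changes of any group, from -5.17 to 3.33. Of 13 synthesis genes 9 were called higher (69.2%, against 20.0% of all genes tested). The 3 called lower (23.1%, against 26.6%) were all aminotransferase isogenes. Of the 3 subunit genes of the branched-chain oxoacid dehydrogenase, the complex that commits the oxoacids to breakdown, 2 were called lower. UNPLg00682 (AAI), the isomeroreductase shared by isoleucine and valine, measured 77.6, 77.6 and 77.0 FPKM at 0 h and 676, 668 and 557 FPKM at 6 h. It was the largest rise of the group, with no overlap (log2 fold change 3.33 ± 0.12 SE, limma adjusted p = 9.64e-06). Cz04g11090 (THD), the threonine deaminase that starts isoleucine, measured 14.5, 14.8 and 18.1 FPKM at 0 h and 46.0, 44.2 and 35.7 FPKM at 6 h (log2 fold change 1.71 ± 0.16 SE, limma adjusted p = 1.87e-04). The large subunit of acetolactate synthase, Cz05g34270 (ALSL), and the dihydroxyacid dehydratase Cz13g06290 (AAD), which work before and after AAI, changed far less. They went from between 95.5 and 101 FPKM at 0 h to between 134 and 176 FPKM at 6 h and from between 129 and 138 FPKM at 0 h to between 198 and 231 FPKM at 6 h, and both just reached the limit (log2 fold changes 1.003 ± 0.13 and 1.001 ± 0.11 SE, limma adjusted p = 8.90e-04 and 3.37e-04). Both calls were lost under the 3 other scalings and without 0 h replicate 2 (0.996 and 0.99) or 6 h replicate 1 (0.91 and 0.93), and that of ALSL also without 6 h replicate 2 (0.97).

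Leucine is made from an oxoacid of the valine path by isopropylmalate synthase, isomerisation and oxidation. Every gene of these steps was called higher, where 20.0% of all genes tested were. Cz04g03100 (LEU1S) and UNPLg00021 (LEU1L) encode the small and the large subunit of the isomerising dehydratase. LEU1S measured 91.7, 89.7 and 110.2 FPKM at 0 h and 537, 465 and 314 FPKM at 6 h. LEU1L measured 104, 94.5 and 98.3 FPKM at 0 h and 382, 480.4 and 443 FPKM at 6 h. The subunits had similar mean levels at each time, but the third 6 h culture was the lowest for the small subunit and the first for the large one (log2 fold changes 2.45 ± 0.22 and 2.44 ± 0.11 SE, limma adjusted p = 1.78e-04 and 1.60e-05). Cz15g07180 (LEU2), the isopropylmalate synthase, went from between 68.2 and 74.9 FPKM at 0 h to between 136 and 178 FPKM at 6 h (log2 fold change 1.44 ± 0.13 SE, limma adjusted p = 1.82e-04). Cz01g31080 (LEU3), the dehydrogenase of the closing oxidation, went from between 56.9 and 58.3 FPKM at 0 h to between 89.1 and 126 FPKM at 6 h (log2 fold change 1.20 ± 0.15 SE, limma adjusted p = 7.17e-04), a call lost under the 3 other scalings.

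In the breakdown complex the subunit genes differed in size of change. Cz05g28150, the E2 subunit of the dehydrogenase complex, measured 58.8, 53.2 and 53.8 FPKM at 0 h and 1.31, 1.40 and 0.820 FPKM at 6 h. It fell the most of all 108 genes (log2 fold change -5.17 ± 0.23 SE, limma adjusted p = 1.43e-05). With a 6 h mean of only 1.18 FPKM, the size of this fall also depends on the added 0.1. The E1 alpha subunit gene Cz03g31230 measured 58.2, 55.0 and 54.4 FPKM at 0 h and 11.5, 11.2 and 8.83 FPKM at 6 h, also far below its 0 h range (log2 fold change -2.10 ± 0.15 SE, limma adjusted p = 6.16e-05). The third subunit gene, for E1 beta, was not called, with a log2 fold change of -0.61, except with TPM scaling (-1.05), and the sum of the 3 went from 152.8 ± 6.99 FPKM to 34.2 ± 8.24 FPKM.

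The aminotransferases that end the synthesis, and can also begin the breakdown, moved in opposite directions. Cz05g34240 (BCA1) measured 33.8, 29.3 and 31.3 FPKM at 0 h and 4.37, 3.64 and 2.31 FPKM at 6 h. Cz07g00200, 1 of 2 BCA3 genes with neighbouring identifiers, measured 26.6, 29.4 and 25.9 FPKM at 0 h and 4.93, 6.93 and 7.34 FPKM at 6 h. Both were under their 0 h range in every 6 h culture (log2 fold changes -2.90 ± 0.26 and -1.79 ± 0.18 SE, limma adjusted p = 1.67e-04 and 2.80e-04). Its neighbour Cz07g00190 (BCA3) fell from between 31.1 and 38.4 FPKM at 0 h to between 9.18 and 14.3 FPKM at 6 h (log2 fold change -1.19 ± 0.21 SE, limma adjusted p = 0.00272), a call lost without 6 h replicate 3 (-0.98). UNPLg00030 (BCA2) rose from between 74.3 and 80.8 FPKM at 0 h to between 120.4 and 168 FPKM at 6 h (log2 fold change 1.25 ± 0.15 SE, limma adjusted p = 6.11e-04), a call lost under the 3 other scalings. The summed level of the 4 genes was 170.6 ± 5.05 FPKM at 0 h and 172.1 ± 28.7 FPKM at 6 h, but BCA2 held 45.2% of it at 0 h and 87.1% at 6 h. After scaling, the log2 ratio of the sums was 0.32.

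**Figure D2:**
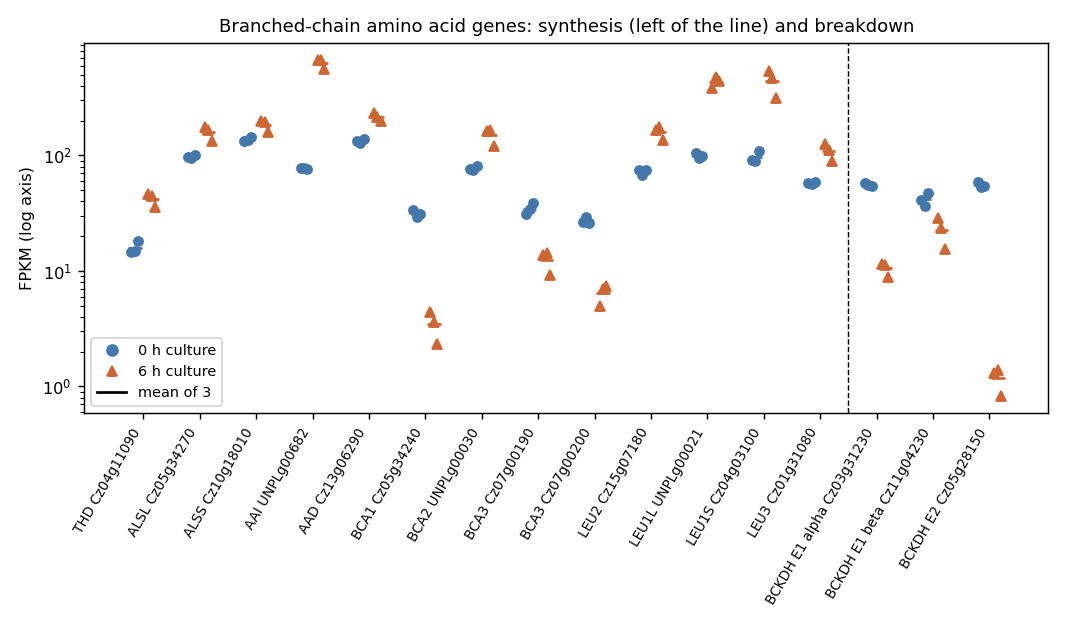
FPKM (vertical log axis) of the branched-chain genes in each of the 6 cultures, circles for 0 h and triangles for 6 h, with a short line at each mean, synthesis to the left of the dashed line and the breakdown complex to the right. AAI rises to a mean of 633.8 FPKM while the E2 subunit drops to a mean of 1.18 FPKM, and BCA2 is the only branched-chain aminotransferase whose 6 h cultures lie above its 0 h cultures.

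Proline genes rose at the closing step and in 1 gene of the opening step, while the genes that break proline down or lead to it from ornithine were not called. Pyrroline-5-carboxylate reductase makes proline whichever precursor is used, and it has 2 genes here. Cz14g23140 measured 18.2, 17.2 and 15.0 FPKM at 0 h and 49.0, 60.7 and 71.6 FPKM at 6 h. Cz13g01190 measured 16.1, 17.6 and 17.2 FPKM at 0 h and 76.8, 61.4 and 45.3 FPKM at 6 h. Their levels were almost equal at each time, yet the order of the 6 h cultures was opposite, the third being the highest for Cz14g23140 and the lowest for Cz13g01190 (log2 fold changes 2.14 ± 0.17 and 2.12 ± 0.21 SE, limma adjusted p = 9.98e-05 and 2.58e-04). Their sum went from 33.8 ± 1.41 to 121.6 ± 4.496 FPKM, with a smaller SD at 6 h than either gene. Cz03g37160, a gamma-glutamyl kinase that starts the glutamate route, went from between 15.4 and 19.3 FPKM at 0 h to between 22.1 and 36.7 FPKM at 6 h (log2 fold change 1.11 ± 0.22 SE, limma adjusted p = 0.00508), a call lost under the 3 other scalings and without 6 h replicate 1 (0.94). The other kinase gene and the gene of the bifunctional pyrroline-carboxylate synthetase had log2 fold changes of 0.67 and 0.66, both wholly above their 0 h range. Cz02g18080, the ornithine aminotransferase and the most abundant gene of the section, was at 212, 193 and 189.5 FPKM at 0 h and 115, 139.5 and 168 FPKM at 6 h, with the cultures of 6 h spread widely (log2 fold change -0.20 ± 0.15 SE, limma adjusted p = 0.279). Proline dehydrogenase, which opens the breakdown of proline, had a log2 fold change of -0.74 and was called lower under the 3 other scalings.

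The aromatic amino acids had 11 genes called higher and 1 lower among 23, where 20.0% and 26.6% of all genes tested were. In the shikimate pathway, which makes chorismate, the entry enzyme carried the largest rises. Its genes Cz06g21120 and Cz06g21110 have neighbouring identifiers and encode deoxyheptulosonate-phosphate synthase (SHKA). Cz06g21120 measured 39.9, 44.5 and 46.5 FPKM at 0 h and 286, 272 and 223 FPKM at 6 h. Cz06g21110 measured 34.4, 40.5 and 36.1 FPKM at 0 h and 118, 146 and 178 FPKM at 6 h. As with the reductase of proline, the order of the 6 h cultures was opposite between the pair (log2 fold changes 2.88 ± 0.13 and 2.28 ± 0.16 SE, limma adjusted p = 1.57e-05 and 6.75e-05), and their sum went from 80.6 ± 5.64 to 407.8 ± 8.71 FPKM. Cz01g17240 (SHKG), the synthase that attaches enolpyruvate to shikimate phosphate and is the target of glyphosate, rose from between 25.8 and 28.2 FPKM at 0 h to between 81.4 and 112 FPKM at 6 h (log2 fold change 2.19 ± 0.15 SE, limma adjusted p = 6.31e-05). Shikimate kinase, Cz06g13030 (SHKF), rose from between 18.5 and 19.6 FPKM at 0 h to between 33.6 and 64.3 FPKM at 6 h (log2 fold change 1.64 ± 0.25 SE, limma adjusted p = 0.0016). Of the 2 genes for dehydroquinate synthase, Cz11g05100 measured 48.9, 47.2 and 43.2 FPKM at 0 h and 14.8, 13.9 and 28.5 FPKM at 6 h. It was called lower (log2 fold change -1.05 ± 0.28 SE, limma adjusted p = 0.0172), but with 1 library left out the call held only without 0 h replicate 3 or 6 h replicate 3, and was lost without each of the other 4 (log2 fold changes -1.03 to -0.85). The 3 genes of the pathway that were not called had log2 fold changes from 0.61 to 0.81.

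In tryptophan synthesis 5 of 8 genes were called higher (62.5%), where 20.0% of all genes tested were. All 8 had a log2 fold change above 0 under the scaling used. However, UNPLg00007 (component II of anthranilate synthase) and Cz08g00140 (IGS) were below 0 under the 3 others. Cz05g19120 (the alpha subunit of tryptophan synthase) was below 0 with TPM (-0.12) and upper-quartile scaling (-0.03). Cz02g30180 (ASB2), the phosphoribosylanthranilate isomerase, measured 23.5, 20.4 and 26.9 FPKM at 0 h and 72.3, 61.2 and 38.7 FPKM at 6 h. Cz05g17190 (IGS), 1 of 2 genes of indole-glycerol-phosphate synthase, measured 39.5, 41.6 and 43.8 FPKM at 0 h and 127, 112 and 64.5 FPKM at 6 h. In both the third 6 h culture was the lowest and still above the 0 h range (log2 fold changes 1.55 ± 0.26 and 1.53 ± 0.26 SE, limma adjusted p = 0.00235 and 0.00272). Anthranilate synthase component I, Cz16g16180 (ANS), which takes chorismate into the branch, rose from between 56.7 and 59.1 FPKM at 0 h to between 87.4 and 112 FPKM at 6 h (log2 fold change 1.12 ± 0.13 SE, limma adjusted p = 4.91e-04). The phosphoribosyltransferase Cz13g16180 (PRT) rose from between 35.3 and 39.8 FPKM at 0 h to between 55.7 and 87.2 FPKM at 6 h (log2 fold change 1.20 ± 0.19 SE, limma adjusted p = 0.00181). The beta subunit of tryptophan synthase, Cz01g22210 (MAA7), was at 130.4, 138 and 149 FPKM at 0 h and 338, 263 and 188 FPKM at 6 h and had the highest mean of the branch over both times (log2 fold change 1.19 ± 0.23 SE, limma adjusted p = 0.00425). The calls of ANS, PRT and MAA7 were lost under the 3 other scalings, and that of MAA7 also without 6 h replicate 1 (0.97). UNPLg00007, Cz08g00140 and Cz05g19120 were not called, with log2 fold changes of 0.06, 0.10 and 0.32.

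For tyrosine and phenylalanine 2 of 7 genes were called higher (28.6%), where 20.0% of all genes tested were, and none lower, where 26.6% were. UNPLg00363 (AGD), the arogenate dehydrogenase that leads to tyrosine, measured 15.5, 15.8 and 21.5 FPKM at 0 h and 40.0, 32.5 and 24.8 FPKM at 6 h. Cz13g09120 (PRD), the arogenate dehydratase that leads to phenylalanine, measured 29.6, 28.0 and 35.6 FPKM at 0 h and 63.9, 58.6 and 41.1 FPKM at 6 h. The lowest 6 h culture, the third in both, was just above the highest 0 h culture (log2 fold changes 1.18 ± 0.23 and 1.10 ± 0.20 SE, limma adjusted p = 0.00451 and 0.00349). Neither call held under the 3 other scalings or without 6 h replicate 1 (0.998 for AGD and 0.96 for PRD). Cz09g10190, a tyrosine aminotransferase, had the highest mean of the section over both times together, at 33.3, 36.5 and 35.6 FPKM at 0 h and 62.1, 52.8 and 52.2 FPKM at 6 h, all above its 0 h range but short of the limit (log2 fold change 0.97 ± 0.12 SE, limma adjusted p = 6.76e-04). Without 0 h replicate 2, 6 h replicate 2 or 6 h replicate 3 it reached the limit, at 1.002, 1.01 and 1.03. The other 4 genes, chorismate mutase, the aromatic hydroxylase, the second tyrosine aminotransferase and the aromatic decarboxylase, had log2 fold changes from -0.65 to 0.62, and the hydroxylase was called lower with TPM (-1.09) and upper-quartile scaling (-1.01).

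**Figure D3:**
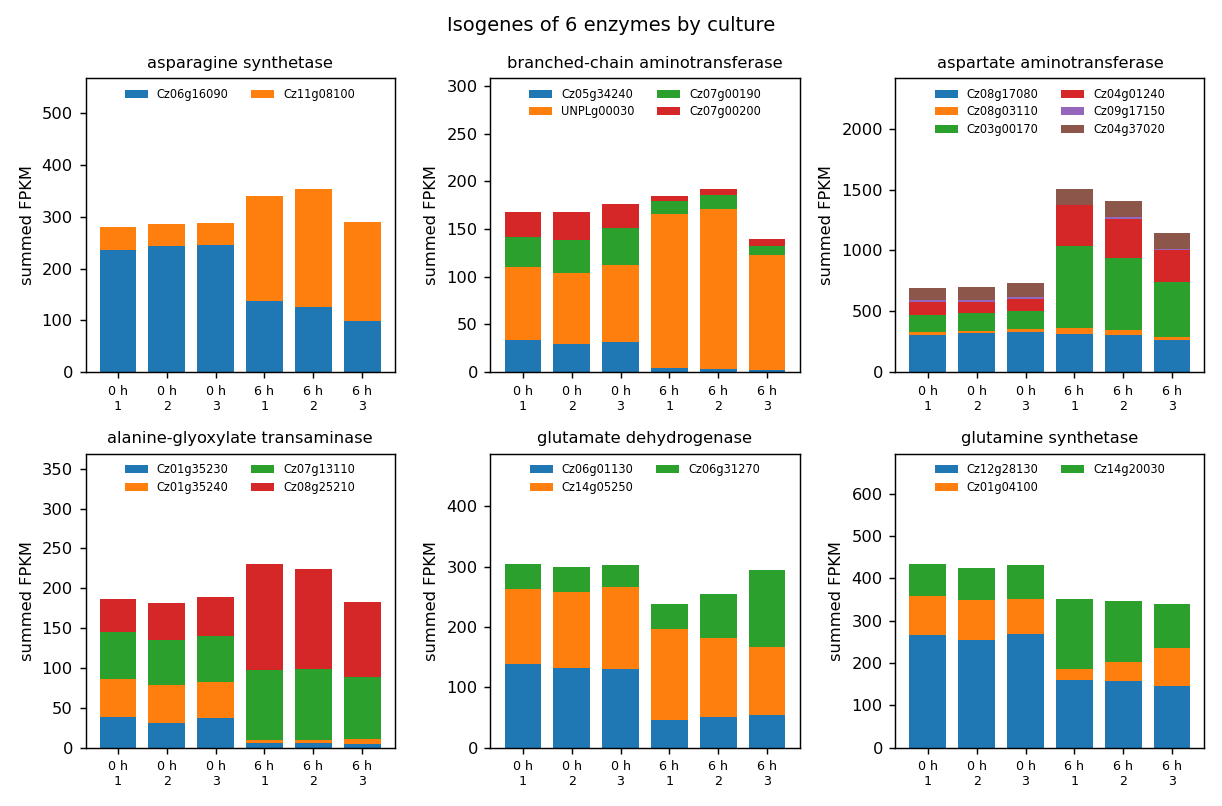
Summed FPKM (vertical axis from 0) of the isogenes of 6 enzymes in each culture (horizontal axis), coloured by gene. For asparagine synthetase the upper gene grows from 15.1% to 63.1% of the sum and for the branched-chain aminotransferase BCA2 (UNPLg00030) grows from 45.2% to 87.1%, while the sums are 284.3 and 328.8 FPKM for the former and 170.6 and 172.1 FPKM for the latter. The sums are of FPKM as deposited, and their log2 ratios after scaling are 0.52 and 0.32.

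For enzymes with several genes, the sum of deposited FPKM could change little while its makeup changed. After scaling, the log2 ratio of the sums was 0.52 for asparagine synthetase and 0.32 for the branched-chain aminotransferase. It was 0.51 for alanine-glyoxylate transaminase and 0.11 for glutamate dehydrogenase, so how level a sum was depended on the scale. In 3 enzymes, glutamate dehydrogenase, alanine-glyoxylate transaminase and the branched-chain aminotransferase, at least 1 isogene was called higher and at least 1 lower. The sum of the glutamate dehydrogenases was 301.9 ± 1.94 FPKM at 0 h and 262.5 ± 29.1 FPKM at 6 h, and the gene with the largest share changed from Cz06g01130 (44.4% at 0 h, 19.2% at 6 h) to Cz14g05250 (42.4% and 49.9%). Both genes of the pyrroline-carboxylate reductase, of deoxyheptulosonate-phosphate synthase and of the sulfurtransferase, in contrast, moved the same way. Genes of 1 enzyme with neighbouring identifiers may be near-identical copies or pieces of 1 gene model, and how fragments common to such copies were assigned is not given in the sources used here, so the split within the pairs of SHKA, BCA3, alanine-glyoxylate transaminase, gamma-glutamyl kinase, serine hydroxymethyltransferase, O-acetylserine sulfhydrylase and the cobalamin-dependent methionine synthase is uncertain. No member shared its 6 values with another gene.

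The 6 h cultures were not equal in their response. After scaling, the third 6 h culture was the lowest of the 3 in 38 of the 43 genes called higher (88.4%), against 68.0% of all genes called higher, and the first was the highest in 32. In the 16 genes called lower, the third culture was again the lowest in 10 (62.5%), against 31.7% of all genes called lower. The median log2 difference of the 70 synthesis genes from their 0 h mean was 1.23, 1.03 and 0.80 in 6 h replicates 1, 2 and 3. That of the 15 genes of breakdown or other use was -0.71, -0.76 and -1.11. The SD of the residuals over the members was 0.0650 to 0.0942 in the 0 h libraries and 0.310, 0.125 and 0.367 in the 6 h libraries, so the first and the third differed most from their group mean, as they did over all genes (0.541 and 0.630 against 0.289 for the second). Leaving out the third 6 h library gave 44 genes called higher and leaving out the first gave 36. What sets these cultures apart was not tested.

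**Figure D4:**
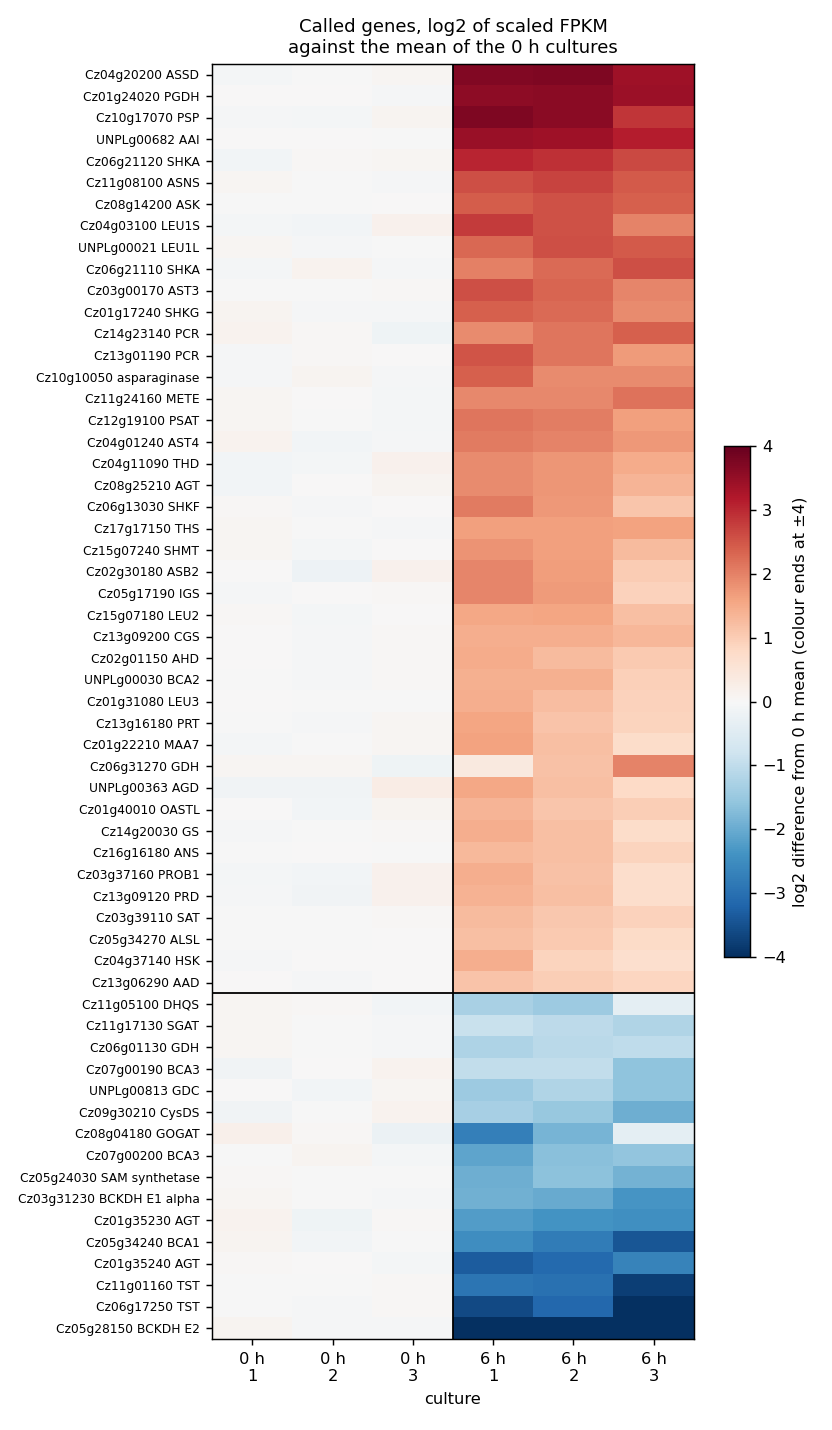
The 59 called genes (43 higher, above the black line, and 16 lower, each with its abbreviation or enzyme where the list gives one) in the 6 cultures, shown as the log2 difference of scaled FPKM from the mean of the 0 h cultures, with the colour scale ending at -4 and 4. The 0 h columns are nearly blank, and in the 6 h columns the third culture is paler than the first for most of the genes called higher.

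The removed sections of the same list are the genes most like these, and their values are set beside them as a description. Of the 67 genes removed 42 were called higher (62.7%) and 10 lower (14.9%), with a median log2 fold change of 1.48. Here the calls were 43 and 16 of 108 and the median was 0.66. Over all genes tested the shares were 20.0% higher and 26.6% lower. By section, 9 of 10 histidine genes, 9 of 9 lysine genes and 14 of 29 arginine genes were called higher, with medians of 2.06, 1.71 and 0.84. The 19 genes of nitrogen transport and assimilation had 10 higher (52.6%) and 5 lower (26.3%) and a median of 1.13. Their lower share was close to that of all genes tested. Among the groups kept, chorismate (1.23), tryptophan (1.16), the joined group of asparagine, threonine and methionine (1.14) and the branched-chain genes (1.002) had medians within the span of the removed sections. The medians of proline (0.67), tyrosine with phenylalanine (0.62), glycine with serine (0.43), aspartate with alanine (0.40), cysteine with selenocysteine (0.25) and glutamate with glutamine (-0.31) lay below it.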

How the data were processed

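The libraries were mapped and quantified by the authors. Their methods name TopHat and Cufflinks, while the submitters' processing notes name HISAT, Bowtie2 and RSEM, so which tools made the values is unsettled here. The genome build, annotation version and strandedness were also not given in the sources used here. The deposited values are FPKM, 1 column per library, not scaled between libraries. Genes absent from a library were set to 0. Names, abbreviations and sections come from the amino acid list of the study's supplement, whose own expression values, fold changes and p-values were not used.

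Library factors by median of ratios (0.884 to 1.13) were divided out, 0.1 was added, and log2 was taken. The test covered the 13886 genes whose mean reached 1 FPKM at either time. The tool was limma 3.58.1 under R 4.3.3, with lmFit followed by eBayes (mean-variance trend on) and time as the only term. Two-sided p-values were adjusted over these genes (Benjamini-Hochberg). Calls required an adjusted p under 0.05 together with a log2 fold change no smaller than 1 in size, which are limits from the study's methods. jsonlite 2.0.0 read the sample records. The procedure was tested on simulated data. Sums over isogenes and over classes are descriptions, and no test was run on them.

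The members, sections and classes were chosen with earlier results of these data known, so no test was made over the list. Genes were named if called, if the most abundant of their section, or if isogenes of an enzyme with calls in both directions, which gave 68 genes. Cz02g08070, Cz15g06070, UNPLg00007, Cz08g00140 and Cz05g19120 are named outside this rule and were chosen after their values were seen. Each library's value is given for up to 2 risers and 2 fallers per section with the largest changes, and for some others. The alternatives concerned scaling (none, TPM, upper quartile), the pseudocount (1 or 0.01), the filter (none, or at least 10 FPKM), the variance (library weights, or a fit without the trend), the replicate number as a block, the size limit (inside the test by limma treat, or absent) and the omission of each library in turn. Sequences and coordinates were not used.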

Additional observations from a re-analysis of the deposited data

How the results depend on the processing

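Of the 59 called genes, 34 kept their call under every alternative run and 0 changed sign under any. With other scalings, higher calls numbered 27 without scaling, 26 with TPM and 27 with upper-quartile scaling in place of 43, those among the synthesis genes 22, 21 and 22 in place of 37, and the median of the members was 0.36, 0.23 and 0.31 in place of 0.66, while lower calls among the interconversion genes were 8 with TPM and 7 with upper-quartile scaling in place of 4. In all 17 of the 43 higher calls and 0 of the 16 lower calls were lost under at least 1 other scaling. All 3 other scalings lowered the log2 fold changes, so they could remove higher calls but hardly any lower call. The 0 is therefore no test of the lower calls. With the size limit inside the test (limma treat) 24 members were higher, 19 of them synthesis genes, and 2 synthesis and 2 interconversion genes were lower. Without a size limit 25 members were lower, 8 of them synthesis and 8 interconversion genes. Then 9 interconversion genes and 2 genes of breakdown or other use were higher. With 1 library left out, the higher calls ranged from 36 to 44, the lower from 14 to 16 and the median from 0.61 to 0.71. Synthesis genes called higher ranged from 30 to 37 and those called lower from 3 to 6. Genes of breakdown or other use called higher ranged from 1 to 2. The sign changed with at least 1 other scaling in 12 members, of which 0 were called and 3 are among those named by rule: Cz14g05250 with TPM (-0.11) and upper-quartile scaling (-0.026), Cz03g05100 with the same (-0.13 and -0.0457), and Cz10g24090 with 1 library left out (-0.0049 without 6 h replicate 1, to 0.076 without 6 h replicate 3), without scaling (-0.28), with TPM (-0.42) and with upper-quartile scaling (-0.33). The cause was not tested. Samples with the same replicate number did not deviate together (correlations of -0.304, -0.111 and -0.489). Between unlike numbers the correlations ran from -0.189 to 0.454. The deviations are from the mean of only 3 cultures, so these values cannot decide whether the numbers pair the cultures. With the replicate number as a block 42 members were higher and 15 lower, and Cz06g31270 and Cz08g04180 lost their calls. The pseudocounts, the filters, library weights and the fit without a trend left both counts within 1.5 times their value. How many fragments a value rests on is unknown, so counting error could not be separated from the spread of 3 cultures, which was wider at 6 h than at 0 h.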
